A study of Mus musculus with 4 samples.

Results

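The genes described here encode the enzymes that remove hydrogen peroxide and superoxide, chosen by name as a set of 10 (Prdx1, Prdx2, Prdx5, Prdx6, Txn1, Cat, Gpx1, Gpx4, Sod1 and Sod2). All 10 had values in the deposited table, out of 17823 genes with values, and all 10 passed the filter on low values used for testing. The blood came from C57BL/6 mice that the labels call adult and the study describes as aging. Nar-treated mice received naringenin, a flavonoid, by tail vein for 30 days, and Ctrl mice received the same volume of PBS over the same time. There were 4 libraries, Ctrl 1, Ctrl 3, Nar 1 and Nar 3, so 2 per group. The labels name no sex and do not say whether a library was 1 animal, so p-values measure the spread between these libraries, which may be technical.

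Superoxide dismutases turn superoxide into hydrogen peroxide, which catalase, the glutathione peroxidases and the peroxiredoxins then reduce. Catalase acts on peroxide directly, glutathione peroxidases draw on glutathione, and most peroxiredoxins are reset by thioredoxin. Red cells carry large amounts of peroxiredoxin 2, catalase and glutathione peroxidase 1, because oxygen-carrying haemoglobin releases superoxide and the cells lose their nuclei and mitochondria as they mature. White cells and platelets also use these enzymes, and phagocytes make superoxide on purpose.

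Values are FPKM (fragments counted per kilobase of transcript, relative to all mapped in that library), as deposited. FPKM is a relative measure within a library, and the number of reads behind each value is unknown. Haemoglobin genes made up 92.6% to 95.1% of the summed FPKM in the Ctrl libraries and 95.7% to 96.4% in the Nar libraries, and all other genes divided what was left. Differences were tested on log2(FPKM + 0.1) with limma over the 5339 genes averaging at least 0.5 FPKM, with Benjamini-Hochberg adjustment over all of them. The median log2 fold change (Nar over Ctrl) of these genes was -1.07, so a typical gene was lower with Nar on this scale. In whole blood, fewer cells of a type and less RNA per cell cannot be told apart.

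With Nar, thioredoxin (Txn1) and peroxiredoxin 5 (Prdx5) fell, while Gpx1, Cat and Prdx2, 3 of the 4 most abundant transcripts of the set, had higher means that did not pass the test. The 2 falls did not pass after median-of-ratios scaling or without the filter on low values (limma adjusted p = 0.113 for both). That of Prdx5 also did not pass with haemoglobin genes removed or with same-numbered libraries treated as a block. Neither fall passed with any 1 library left out, a fit in which 1 group holds a single library and adds no spread. The log2 fold changes then ran from -2.61 to -2.19 for Txn1 and from -2.07 to -1.35 for Prdx5. Of the 10 genes, 2 passed at an adjusted p-value under 0.05 with lower values, where 39.6% of all tested genes did. None passed with higher values in limma, adjusted or at an unadjusted p-value under 0.05, where 0.187% of all tested genes passed higher. Both Nar libraries lay below both Ctrl libraries for 6 of the 10 genes, against 78.3% of all tested genes, and for the other 4 the groups overlapped. Both Nar libraries lay above both Ctrl libraries for 0 of the 10, against 1.27% of all tested genes. The median log2 fold change of the 10 was -0.73, and 7 of them lay above the median of all tested genes.

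**Figure D1:**
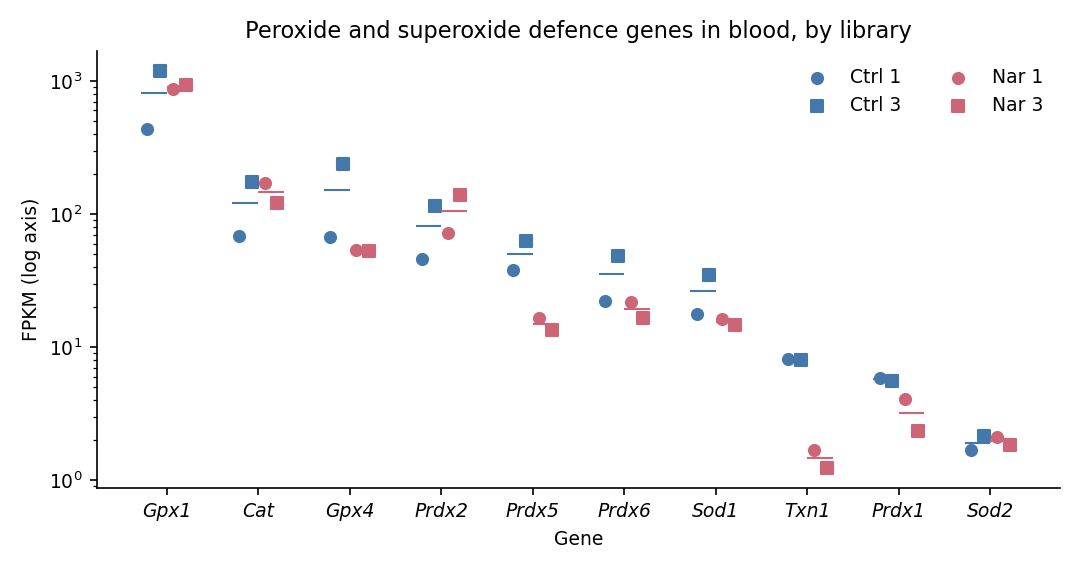
FPKM of the 10 genes in each library on a log axis, ordered by mean level. Circles are replicate 1, squares replicate 3, blue Ctrl, red Nar, and short lines are group means (n = 2 each). Txn1 and Prdx5 show Nar points well below Ctrl points, and for 7 genes the blue square (Ctrl 3) stands well above the blue circle (Ctrl 1).

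Gpx1, the cytosolic selenium enzyme that removes hydrogen peroxide with glutathione, was the most abundant of the set. Its FPKM was 433 (Ctrl 1) and 1195 (Ctrl 3) against 865 (Nar 1) and 937 (Nar 3), which made it the 30th, 16th, 15th and 13th highest gene of these libraries. Both Nar values lay between the Ctrl values. The log2 fold change was 0.32 (standard error 0.50, 95% interval -0.80 to 1.45, limma adjusted p = 0.576). Cat, which splits hydrogen peroxide into water and oxygen, stood at 68.7 (Ctrl 1) and 173.9 (Ctrl 3) FPKM against 170.7 (Nar 1) and 120.2 (Nar 3). The 2 groups overlapped here too, with a log2 fold change of 0.39 (standard error 0.57, 95% interval -0.90 to 1.68, limma adjusted p = 0.557).

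Gpx4, the glutathione peroxidase that reduces lipid hydroperoxides within membranes, showed another order of libraries. It stood at 67.0 (Ctrl 1) and 236 (Ctrl 3) FPKM against 53.5 (Nar 1) and 53.1 (Nar 3). The Nar libraries were nearly equal and both below Ctrl 1, while Ctrl 3 exceeded Ctrl 1 by 3.52-fold, the widest Ctrl gap of the 10 genes. The log2 fold change was -1.24 (standard error 0.64, 95% interval -2.68 to 0.21, limma adjusted p = 0.128), close to that of a typical gene. Without Ctrl 3 it was -0.33 and without Ctrl 1 it was -2.14. The gene has 4 annotated start sites, for forms directed to different compartments, and a single FPKM value does not separate them.

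Of the 4 peroxiredoxins, Prdx2, the form that red cells hold in largest amount, was the most abundant. It stood at 46.3 (Ctrl 1) and 115.9 (Ctrl 3) FPKM against 72.3 (Nar 1) and 139.6 (Nar 3). Neither group was above the other, and within each group replicate 3 was the higher library, by 2.50-fold in Ctrl and 1.93-fold in Nar. The log2 fold change was 0.45 (standard error 0.61, 95% interval -0.93 to 1.84, limma adjusted p = 0.522). Prdx5, which reduces peroxides in mitochondria, peroxisomes and cytosol, stood at 38.1 (Ctrl 1) and 62.8 (Ctrl 3) FPKM against 16.5 (Nar 1) and 13.4 (Nar 3). It was lower in both Nar libraries, 3.27-fold on the scale of the test, with a log2 fold change of -1.71 (standard error 0.52, 95% interval -2.89 to -0.53, limma adjusted p = 0.0348). This lay 0.64 below the median of all tested genes, and 11.7% of them had a lower fold change. With haemoglobin genes removed Prdx5 had -1.15 (limma adjusted p = 0.102), and after median-of-ratios scaling -0.60 (limma adjusted p = 0.724). At an unchanged -1.71 it also did not pass without the filter on low values (limma adjusted p = 0.113). The same held with same-numbered libraries treated as a block (limma adjusted p = 0.112).

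Prdx6, a peroxiredoxin that works with glutathione in place of thioredoxin, stood at 22.3 (Ctrl 1) and 48.2 (Ctrl 3) FPKM against 22.0 (Nar 1) and 16.5 (Nar 3). Nar 1 nearly equalled Ctrl 1, so the groups were separated by little, and the log2 fold change of -0.78 did not pass (standard error 0.56, 95% interval -2.05 to 0.49, limma adjusted p = 0.247). Without Ctrl 3 the log2 fold change of Prdx6 was -0.225 and without Ctrl 1 it was -1.335. Its close copy Prdx6b was listed with no value in any library. Prdx1, the cytosolic relative of Prdx2 found in most nucleated cells, stood at 5.90 (Ctrl 1) and 5.57 (Ctrl 3) FPKM against 4.07 (Nar 1) and 2.34 (Nar 3). The Ctrl libraries were nearly level and both Nar libraries were below them, with a log2 fold change of -0.87 (standard error 0.46, 95% interval -1.90 to 0.16, limma adjusted p = 0.132). Without Nar 3 the log2 fold change of Prdx1 was -0.48 and without Nar 1 it was -1.26.

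Txn1, the cytosolic thioredoxin that returns electrons to peroxiredoxins, showed the steepest fall of the set. It stood at 8.12 (Ctrl 1) and 8 (Ctrl 3) FPKM against 1.69 (Nar 1) and 1.24 (Nar 3). The Ctrl libraries were nearly equal, Ctrl 3 at 0.985-fold of Ctrl 1, and both Nar libraries were far below them. The fall was 5.27-fold on the scale of the test, a log2 fold change of -2.40 (standard error 0.42, 95% interval -3.34 to -1.45, limma adjusted p = 0.00774), and only 3.93% of all tested genes had a lower fold change. Sequence copies of Txn1 elsewhere in the genome could take or lend reads in the authors' alignment, which the FPKM values do not show.

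Of the 2 superoxide dismutases, Sod1 exceeded Sod2 by 7.76-fold to 16.2-fold across the libraries. Sod1, the copper and zinc enzyme of the cytosol, stood at 17.8 (Ctrl 1) and 35.1 (Ctrl 3) FPKM against 16.4 (Nar 1) and 14.7 (Nar 3), with both Nar libraries slightly below Ctrl 1. Its log2 fold change was -0.69 (standard error 0.54, 95% interval -1.90 to 0.53, limma adjusted p = 0.283), and it was -0.20 without Ctrl 3 and -1.17 without Ctrl 1. Sod2, the manganese enzyme of mitochondria, stood at 1.69 (Ctrl 1) and 2.16 (Ctrl 3) FPKM against 2.11 (Nar 1) and 1.86 (Nar 3). It was the most even of the 10 genes across libraries, with a log2 fold change of 0.05 (standard error 0.37, 95% interval -0.80 to 0.90, limma adjusted p = 0.912). Beside the median of -1.07 over all tested genes, 94.4% of these genes had a lower fold change than Sod2.

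**Figure D2:**
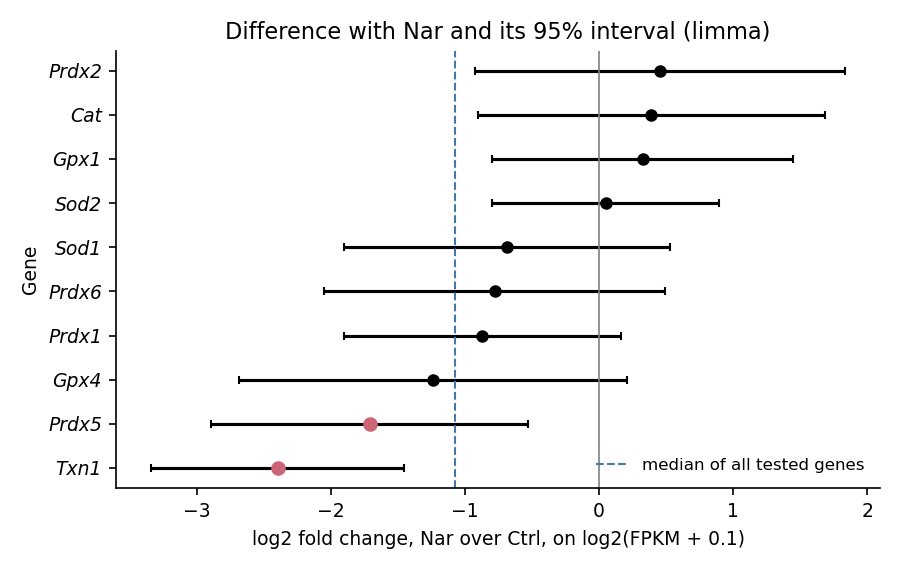
Log2 fold change of each gene (Nar over Ctrl, on log2(FPKM + 0.1)) with its 95% interval from limma. Red points have an adjusted p-value under 0.05 (Txn1 and Prdx5), and the dashed line at -1.07 is the median of all tested genes. The intervals of Gpx1, Cat, Prdx2 and Sod2 lie wholly above the dashed line and include 0, and those of Gpx4, Prdx1, Prdx6 and Sod1 include both 0 and the line.

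Since the level of a typical gene differed between the groups, the genes were also compared after median-of-ratios scaling. This levels the typical gene between libraries and moved the median of all tested genes to -0.06. On that scale 7 of the 10 genes had positive and 3 had negative log2 fold changes, and 0 passed in limma (5 had an unadjusted p-value under 0.05, as did 745 of all 5339 tested genes), where 0.356% of tested genes passed lower and 0.112% higher. Prdx2 had 1.56, Cat 1.499, Gpx1 1.43 and Sod2 1.10, with limma adjusted p-values of 0.338, 0.296, 0.275 and 0.208. On the same scale 16 tested marker genes of red cells (the erythroid markers below) had a median of 1.46, with 0 passing. The 10 tested haemoglobin genes had a median of 1.04, with 4 passing. Txn1 remained lower at -1.33 (limma adjusted p = 0.170) and did not pass, nor did Prdx5. Prdx1, Prdx6 and Sod1 changed sign, to 0.21, 0.33 and 0.42.

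A ratio of 2 genes in the same library does not depend on how that library was scaled, so 5 such ratios were compared. The ratio of Gpx1 to Gpx4 was 6.46 (Ctrl 1) and 5.06 (Ctrl 3) against 16.2 (Nar 1) and 17.7 (Nar 3). Here the libraries of each group were close together and the groups far apart, a 2.95-fold higher ratio with Nar, although Gpx1 alone differed 2.76-fold and Gpx4 alone 3.52-fold between the Ctrl libraries. The log2 fold change of Gpx4 was -0.16 from the median of all tested genes and that of Gpx1 was 1.40 above it, so the ratio of Gpx1 to a typical gene was also higher with Nar. With 2 libraries against 2, the exact permutation test gave a two-sided p = 0.333, the smallest it can give, and 0.556 after adjustment over the 5 ratios.

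The ratio of Prdx5 to Prdx2 also separated the groups, at 0.822 (Ctrl 1) and 0.541 (Ctrl 3) against 0.229 (Nar 1) and 0.0958 (Nar 3) (exact permutation p = 0.333, adjusted 0.556). It was 4.48-fold lower with Nar. Sod2 relative to Sod1 was higher in both Nar libraries, at 0.0947 and 0.0615 in Ctrl 1 and Ctrl 3 against 0.129 and 0.126 in Nar 1 and Nar 3 (exact permutation p = 0.333, adjusted 0.556). For Prdx1 to Prdx2 the groups overlapped, at 0.127 and 0.0481 in Ctrl against 0.0563 and 0.0168 with Nar (exact permutation p = 0.667, adjusted 0.833). For Cat to Gpx1 the groups overlapped too, and the Nar libraries lay on either side of the Ctrl libraries, at 0.159, 0.146, 0.197 and 0.128 in Ctrl 1, Ctrl 3, Nar 1 and Nar 3 (exact permutation p = 1, adjusted 1).

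**Figure D3:**
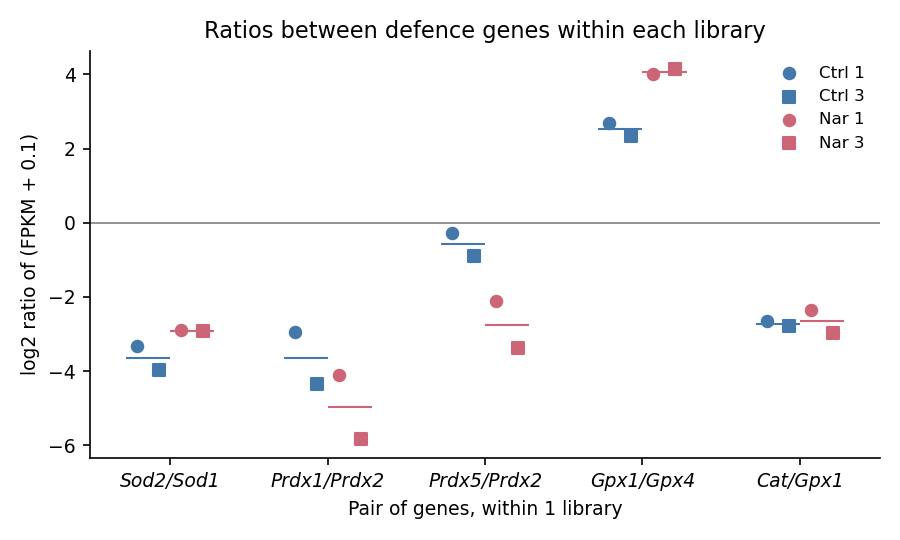
Log2 ratios of (FPKM + 0.1) for 5 pairs of genes within each library, with group means as short lines (n = 2 each). For Gpx1/Gpx4 the Nar points at 4.01 and 4.14 stand clear of the Ctrl points at 2.69 and 2.34, while for Cat/Gpx1 all 4 points lie between -2.96 and -2.34.

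The Ctrl libraries themselves differed in this set. Ctrl 3 exceeded Ctrl 1 by more than 1.5-fold for 7 of the 10 genes (Gpx1, Cat, Gpx4, Prdx2, Prdx5, Prdx6 and Sod1), against 30.6% of all tested genes, with a median of 2.07-fold for the 10 and 1.10-fold for all. Txn1, Prdx1 and Sod2 differed by 0.985-fold, 0.944-fold and 1.28-fold. Between Nar 3 and Nar 1 the median was 0.845-fold for the 10 genes and 0.822-fold for all. Without Ctrl 1 the log2 fold changes of Gpx1, Cat and Prdx2 turned to -0.41, -0.28 and -0.21, and without Ctrl 3 they were 1.06, 1.06 and 1.12, so the direction for these 3 genes rested on which Ctrl library was kept. No call of Txn1 or Prdx5 passed once any 1 library was left out, with log2 fold changes from -2.61 to -2.19 for Txn1 and from -2.07 to -1.35 for Prdx5, and without either Ctrl library 0 genes of the whole table passed in limma (2682 without Ctrl 1 and 2133 without Ctrl 3 had an unadjusted p-value under 0.05).

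To check the red cell label, each gene was set against the median of 18 erythroid marker genes (such as Alas2, the first enzyme of haem synthesis in red cells) within its library. The marker median corresponded to 5.67 (Ctrl 1) and 11.5 (Ctrl 3) FPKM against 14.1 (Nar 1) and 9.08 (Nar 3), so the markers also stood higher in Ctrl 3 than in Ctrl 1, and of 16 tested markers 0 passed in limma (0 at an unadjusted p-value under 0.05). Relative to this median, the mean differences (Nar minus Ctrl) of Gpx1, Cat and Prdx2 were small, at -0.15, -0.09 and -0.02 on the log2 scale, and that of Sod2 was -0.43, with overlapping groups for all 4. Within the Nar group these genes did not all keep step with the markers. Prdx2 stood at 2.35 (Nar 1) and 3.93 (Nar 3) relative to the median, higher in the library where the markers were lower, and Gpx1 at 5.93 and 6.67, so their group means average libraries on either side of the Ctrl mean. Cat varied least of the 3, at 3.58 (Ctrl 1) and 3.90 (Ctrl 3) against 3.59 (Nar 1) and 3.71 (Nar 3). The other 6 genes were lower in both Nar libraries, against 88.4% of all tested genes, whose median difference was -1.55 on this scale. Gpx4, Prdx5 and Txn1 lay below that median, at -1.72, -2.19 and -2.88, while Sod1, Prdx6 and Prdx1 lay above it, at -1.16, -1.26 and -1.35.

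**Figure D4:**
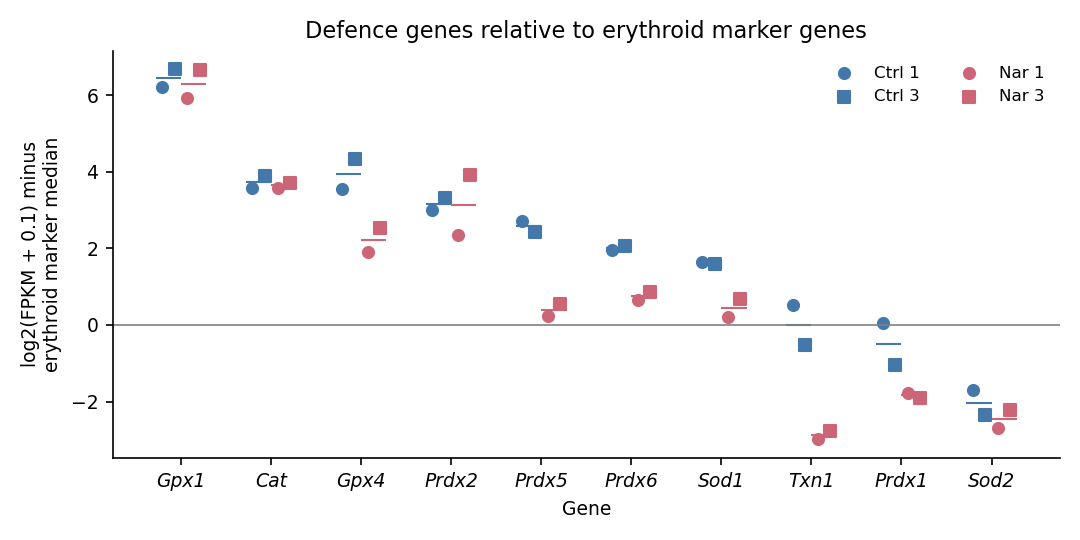
Log2(FPKM + 0.1) of each gene minus the median of 18 erythroid marker genes in the same library, with group means as short lines (n = 2 each). Gpx1, Cat, Prdx2 and Sod2 overlap between groups, and the other 6 genes lie lower in both Nar libraries.

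Markers of other blood cells moved as well. All 12 tested of 14 neutrophil markers passed lower, with a median log2 fold change of -3.67, and their summed FPKM was 1442 to 1742 in Ctrl and 106 to 165 with Nar. Of 6 tested monocyte markers 4 passed lower (median -1.84, summed FPKM 351 to 420 in Ctrl and 95.7 to 138 with Nar). Of 6 platelet markers 0 passed (1 at an unadjusted p-value under 0.05), and their summed FPKM was 600 (Ctrl 1) and 1908 (Ctrl 3) against 520 (Nar 1) and 392 (Nar 3), which set Ctrl 3 apart as Gpx4 did. B cell and T cell markers had medians of -0.34 and -0.47 with 0 of 5 and 0 of 5 passing (0 and 1 at an unadjusted p-value under 0.05), and 1 of 5 NK cell markers passed lower, with a median of -1.18. After median-of-ratios scaling 3 of the 12 neutrophil markers (median -2.57), 1 of the 6 monocyte markers (median -0.78) and 0 of the 5 NK cell markers (median -0.27) passed. No marker listed was at 0 in all libraries. The part of these cell types in the results for Txn1, Prdx5 and Gpx4 was not tested.

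Of 31 further genes of peroxide defence, from lists of related enzymes, thiol recycling and NADPH supply, 22 could be tested, of which 9 passed lower and 0 higher in limma (0 higher at an unadjusted p-value under 0.05), where 39.6% and 0.187% of all tested genes did. The recycling enzymes Gsr, which regenerates glutathione, and Glrx, which uses it to reduce protein disulphides, fell with log2 fold changes of -2.29 and -2.34 (limma adjusted p = 0.0112 and 0.00888). Gsr stood at 13.1 and 15.2 FPKM in Ctrl 1 and Ctrl 3 and at 2.75 and 2.85 in Nar 1 and Nar 3. Msrb1, which repairs oxidised methionine, fell from 32.8 and 29.4 FPKM to 4.64 and 5.58, a log2 fold change of -2.59 (limma adjusted p = 0.00936). Beside these 3 recycling genes, Txn1 had a log2 fold change of -2.40.

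G6pdx and Pgd, which supply the NADPH that both thiol systems draw on, fell with log2 fold changes of -1.83 and -2.07 (limma adjusted p = 0.0211 and 0.0151). Pgd was level within groups, at 12.6 and 12.8 FPKM in Ctrl and 2.87 and 3.03 with Nar. Gclm, the modifier subunit of the first enzyme of glutathione synthesis, stood at 32.0 (Ctrl 1) and 82.5 (Ctrl 3) FPKM against 81.1 (Nar 1) and 53.7 (Nar 3), the same order of libraries as Cat (log2 fold change 0.36, limma adjusted p = 0.604). Glrx5, a mitochondrial glutaredoxin needed for iron-sulphur clusters, had 36.8 and 61.8 FPKM in Ctrl against 83.7 and 45.9 with Nar (log2 fold change 0.38, limma adjusted p = 0.558). Srxn1, which restores over-oxidised peroxiredoxins, stood at 8.73 and 24.9 FPKM in Ctrl and 12.3 and 6.75 with Nar (log2 fold change -0.69, limma adjusted p = 0.344).

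Among the remaining peroxidases and dismutase genes, Prdx4, the peroxiredoxin of the endoplasmic reticulum, fell with a log2 fold change of -1.65 (limma adjusted p = 0.0278), from 0.88 and 2.31 FPKM to 0.41 and 0.37. Prdx3, its mitochondrial relative, had -0.98 (limma adjusted p = 0.132). Ccs, the chaperone that loads copper into Sod1, had 0.62 and 0.80 FPKM in Ctrl against 1.19 and 0.94 with Nar, a log2 fold change of 0.52 that did not pass (limma adjusted p = 0.217). Gpx3, Gpx7, Gpx8 and Sod3 were under the level tested. After median-of-ratios scaling 0 of the 22 genes passed in limma.

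**Figure D5:**
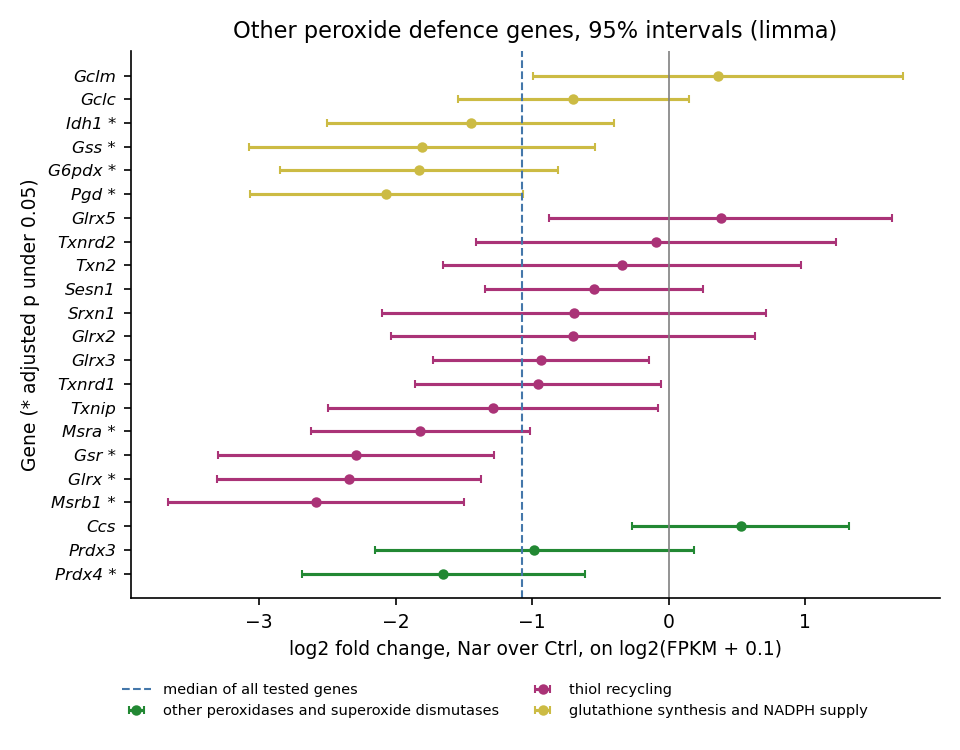
Log2 fold changes (Nar over Ctrl) with 95% intervals from limma for 22 further defence genes, coloured by list, with the median of all tested genes at -1.07 as a dashed line. The 9 genes marked with an asterisk passed, all lower, and Gclm, Glrx5 and Ccs are the 3 genes with positive estimates.

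Promoter windows from RefSeq (GRCm38.p6, the build the labels name, 250 bases before to 50 after an annotated start) were read for 9 of the 10 genes, in 12 windows. They are shown for the 2 genes that fell, for Gpx1 and Prdx2, the most abundant members of their families, and for Prdx1, which alone held an antioxidant response element core that overlaps an AP-1 motif. In the first 4, capitals mark a CACCC-type box (CCNCNCCC on either strand), letters that GC boxes can share. In Prdx1, capitals mark the antioxidant response element core (TGACNNNGC, here on the reverse strand), the kind of site that the stress factor Nrf2 binds.
Txn1, chr4:57956362-57956661, minus strand: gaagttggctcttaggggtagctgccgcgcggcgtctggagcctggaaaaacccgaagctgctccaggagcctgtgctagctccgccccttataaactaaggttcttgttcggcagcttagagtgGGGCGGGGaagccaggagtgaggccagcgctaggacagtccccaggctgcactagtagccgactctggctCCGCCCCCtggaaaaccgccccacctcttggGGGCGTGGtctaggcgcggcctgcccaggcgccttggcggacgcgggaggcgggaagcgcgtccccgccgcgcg
Prdx5, chr19:6910057-6910356, minus strand: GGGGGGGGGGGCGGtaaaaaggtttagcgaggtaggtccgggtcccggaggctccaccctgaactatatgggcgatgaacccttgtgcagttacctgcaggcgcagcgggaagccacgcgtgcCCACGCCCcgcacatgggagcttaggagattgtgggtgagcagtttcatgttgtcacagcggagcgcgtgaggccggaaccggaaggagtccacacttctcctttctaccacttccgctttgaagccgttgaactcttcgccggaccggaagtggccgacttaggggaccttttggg
Gpx1, chr9:108338830-108339129, plus strand: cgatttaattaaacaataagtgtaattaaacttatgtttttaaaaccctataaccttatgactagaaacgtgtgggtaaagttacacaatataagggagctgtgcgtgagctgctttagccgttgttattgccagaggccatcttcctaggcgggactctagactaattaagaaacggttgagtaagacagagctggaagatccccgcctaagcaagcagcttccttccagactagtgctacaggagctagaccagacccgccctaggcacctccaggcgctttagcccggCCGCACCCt
Prdx2, chr8:84969372-84969671, plus strand: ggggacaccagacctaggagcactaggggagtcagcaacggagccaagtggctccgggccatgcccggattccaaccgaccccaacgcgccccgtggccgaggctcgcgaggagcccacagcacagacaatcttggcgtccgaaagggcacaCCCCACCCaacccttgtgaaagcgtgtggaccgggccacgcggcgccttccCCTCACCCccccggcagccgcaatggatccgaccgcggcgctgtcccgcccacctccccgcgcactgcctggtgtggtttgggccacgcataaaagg
Prdx1, chr4:116685349-116685648, plus strand: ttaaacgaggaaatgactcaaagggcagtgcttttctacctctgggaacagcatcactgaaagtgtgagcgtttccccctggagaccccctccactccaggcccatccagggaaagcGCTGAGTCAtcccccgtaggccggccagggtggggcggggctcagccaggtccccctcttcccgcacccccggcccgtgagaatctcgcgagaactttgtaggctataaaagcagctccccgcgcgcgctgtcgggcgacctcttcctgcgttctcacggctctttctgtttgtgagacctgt

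Counted by window, the CACCC-type box was found in 11 of the 12 windows of these genes and in 49.5% of all 32851 windows. Several of the 12 windows belong to Gpx4, and some of these overlap, so the same match is counted more than once. In Gpx1 the only match begins 41 bases after the start site. The base composition of all windows was not computed, so these shares are not compared at like G and C content. The core of the antioxidant response element was found in 2 of the 12, those of Prdx1 and Sod1, and in 12.4% of all windows. The AP-1 motif (TGANTCA) was found in 1 of the 12, that of Prdx1, and in 7.81% of all windows, and the GATA motif (AGATAA) in 0 of the 12 and in 11.2% of all windows. In Prdx1 the core begins 133 bases before the start site and one of its 2 AP-1 matches, the one that overlaps the core, 131 bases before it. The other AP-1 match begins 237 bases before the start site. Base composition was 47.0% G and C in the Gpx1 window and 68.7% in the Prdx2 window. These matches describe letters in the windows, and they did not separate Txn1 and Prdx5 from Gpx1 and Prdx2.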

How the data were processed

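Blood RNA-seq libraries were analysed, 2 from Ctrl and 2 from Nar-treated mice. The values are gene-level FPKM as the authors deposited them, to 2 decimals. The methods name bowtie-2 for alignment, and the submitters' processing notes list TopHat2, Cufflinks and GRCm38. Of 23136 genes listed, 5313 were blank, and 0 columns were left over. Read numbers were not recovered: with the best of 2000 step sizes tried, 60.5% to 66.8% of low values lay within 0.2 of a whole read. An even spread gives 40% for a step fixed beforehand, not for the best of many. The best step was alike in the libraries, from 0.0445 to 0.0449 (FPKM times kilobases per read), and was not used to set a depth.

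limma 3.58.1 in R 4.3.3 (lmFit, eBayes with trend) was run on log2(FPKM + 0.1) for genes with a mean of at least 0.5 FPKM, and was tested on simulated data. The study's DEGseq test needs read numbers. The genes, lists and tests were chosen with earlier results of these data known. All 10 members were named. Of the other defence lists, the 3 genes with the highest mean and those passing with a fold change at least 1 from the median of all genes could be named, and the highest gene of each marker list. Of 19 erythroid markers 18 had values. Alternatives were pseudocounts of 1 and 0.01, no filter, a mean of at least 5 FPKM, rescaling to a sum of 1000000 with and without haemoglobin genes, median-of-ratios scaling, no trend, a replicate block and each library left out. Plots used matplotlib 3.10.9 in Python 3.11.15.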

Additional observations from a re-analysis of the deposited data

How the results depend on the processing

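Of the 10 genes, 2 passed lower, and this count was 0 without the filter on low values, 1 with a mean of at least 5 FPKM (which leaves out Txn1), 1 with haemoglobin genes removed, 0 with median-of-ratios scaling, and 0 without any 1 of the 4 libraries. The 9 further defence genes called became 0, 4, 4, 0 and 0 under the same settings. These counts moved with those of the whole table, where 2113 of 5339 genes passed lower (39.6%), and 0 of 16382 did without the filter (4978 at an unadjusted p-value under 0.05), 116 of 1083 (10.7%) with a mean of at least 5 FPKM, 242 of 5329 (4.54%) with haemoglobin genes removed, 19 (0.356%) with median-of-ratios scaling, 0 without Ctrl 1 or Ctrl 3, 254 without Nar 1 and 213 without Nar 3. Without the filter, Txn1 and Prdx5 still had log2 fold changes of -2.40 and -1.71. None of the 10 genes passed higher under any alternative run. Fewer genes or libraries entered some of these fits, and more genes entered the fit without the filter. The cause of these changes was not tested. The median log2 fold change of the 10 genes, -0.73, was -0.17 with haemoglobin genes removed, 0.37 with median-of-ratios scaling and -1.001 to -0.21 across left-out libraries. Its distance from the median of all tested genes, 0.34, turned to -0.064 with a pseudocount of 1 and to -0.16 without the filter, and ran from 0.19 to 0.74 across left-out libraries. Both sign turns came mainly with the median of all tested genes, as the median of the 10 was -0.68 and -0.73 there. Whether the 10 genes as a set differ from other genes was not tested. Single values that changed sign were Prdx1 (0.21), Prdx6 (0.33) and Sod1 (0.42) with median-of-ratios scaling, Sod2 with TPM (-0.0062), Gpx1 (-0.41), Cat (-0.28), Prdx2 (-0.21) and Sod2 (-0.12) without Ctrl 1, Sod2 without Nar 1 (-0.04) and Prdx2 without Nar 3 (-0.02). Across left-out libraries these 4 genes reached up to 1.06 (Gpx1), 1.06 (Cat), 1.12 (Prdx2) and 0.22 (Sod2), each without Ctrl 3. Across left-out libraries the log2 difference ran from 1.39 to 1.74 for Gpx1/Gpx4, -2.79 to -1.54 for Prdx5/Prdx2, 0.42 to 1.05 for Sod2/Sod1, -2.19 to -0.46 for Prdx1/Prdx2 and -0.24 to 0.38 for Cat/Gpx1, and the median difference from erythroid markers, -1.21, ran from -1.32 to -0.97.

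The groups share the numbers 1 and 3, and same-numbered libraries deviated from their group means with a correlation of -0.153. With 2 libraries per group, the crossed pairing must give the same value with the opposite sign. This correlation therefore cannot show whether same-numbered libraries were handled together. With the replicate block 1 of the 10 genes passed lower (Txn1), with Prdx5 at a limma adjusted p = 0.112, and 33.8% of all tested genes did. When the pairs were crossed, which was tried only after seeing the data, 3 of the 10 passed lower, where 60.1% of all tested genes did. The read depth is not known, so the precision of low values such as those of Sod2 cannot be given.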
